A study of Mus musculus with 8 samples.

Results

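Molecular chaperones are proteins that help other proteins reach or keep their folded shape. The genes described here are the heat shock proteins of the Hsp70, Hsp110, Hsp90 and small families, the mitochondrial chaperonin of Hsp60 and Hsp10, the DnaJ or J-proteins, which deliver clients to Hsp70 and trigger its ATP hydrolysis, and the Cct subunits of TRiC, the ring-shaped cytosolic chaperonin that folds actin and tubulin. They were chosen by gene symbol alone: symbols starting with Hspa, Hspb, Hspd, Hspe, Hsph, Hsp9, Dnaja, Dnajb, Dnajc or Cct2 to Cct8, without Hspg2 and Hspbap1, with a total of at least 80 counts over 8 libraries. Of 25239 genes in the deposited table, 82 had such a symbol and 76 reached the total. The member nearest above the minimum was Hspb9, with 91 counts, and the symbol nearest below it was Dnajb7, with 20 counts; 3 of the 6 symbols left out had no count at all.

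The libraries came from mouse kidney after ischemia-reperfusion (I/R), an injury in which blood flow to the kidney is stopped and then restored. Control 1 to 4 carry the genotype label WT, and knockout 1 to 4 are labelled myeloid-specific FoxO1-knockout; FoxO1 is a transcription factor of the forkhead family. The labels describe Lyz2-CreERT2 FoxO1flox/flox mice of 8 to 10 weeks that received tamoxifen at 75 mg per kg on 5 days, in which the Cre recombinase is driven by the lysozyme gene of myeloid cells. The same protocol text is attached to all 8 libraries, and whether the controls carried Cre or floxed alleles, or received tamoxifen, is not given in the sources used here. In all 8 libraries the right kidney had been removed, the vessels of the left kidney had been clamped for 35 minutes, and the tissue had been digested with collagenase before RNA extraction. The time from reperfusion to collection is not given in the sources used here, and no uninjured kidney was analysed here. No label says that the libraries of a group came from separate animals, so each p-value reflects only how these libraries spread, which may be technical.

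Library totals ran from 29044405 to 35530421 counts. Foxo1 itself stood at 33.7 ± 0.626 CPM (counts scaled to the library total, with TMM factors) in controls and 41.1 ± 1.49 CPM in knockouts (SD, n = 4 each; edgeR adjusted p = 0.0647), a level of whole tissue that does not check a deletion in myeloid cells. Nephron markers were present in every library but not at equal levels. By edgeR 3 of 10 proximal tubule, 4 of 6 thick ascending limb and 8 of 10 distal tubule and collecting duct markers rose, and 0 fell. Summed thick ascending limb markers were at 2208 to 3792 CPM in controls and 6277 to 7309 CPM in knockouts. All 10 injured-tubule markers tested fell, with summed levels of 15432 to 30201 CPM in controls and 6048 to 7001 CPM in knockouts. Of 8 macrophage markers edgeR called 0 and DESeq2 3, and 3 had an unadjusted p under 0.05; of 6 neutrophil markers tested 5 fell. In bulk tissue, fewer cells of a type and less RNA per cell cannot be told apart.

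In cells under protein stress, heat shock factors bind short inverted repeats in the promoters of several cytosolic chaperone genes, and a separate response to unfolded protein in the endoplasmic reticulum (ER) raises the chaperones of that compartment. Many chaperones are also made constantly, and Hsc70 (Hspa8) and Hsp90 beta (Hsp90ab1) are among the abundant proteins of most cells. In the kidney, Hsp27, the product of Hspb1 (Hsp25 in the mouse), is known as a stress-responsive protein of injured tubules.

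Chaperone genes were called at about the rate of all genes. Of 76 members, all of which passed the filter on low counts, 10 changed at an edgeR adjusted p under 0.05: 8 were lower in the knockout and 2 were higher. That is 13.2% of the members, against a background of 12.7% of 15000 genes tested (6.28% lower and 6.45% higher). The small heat shock protein gene Hspb1, the TRiC subunit genes Cct2, Cct3, Cct5 and Cct8, the J-protein genes Dnajb9 and Dnajc2 and the Hsp70 gene Hspa14 fell, and Hspb7 and Dnajc12 rose. Of the 8 TRiC genes 4 were called. None of the 4 class A J-proteins, 3 Hsp90 genes or 2 mitochondrial chaperonin genes was called by edgeR; at an unadjusted p under 0.05 there were 0, 2 and 1 of them, and DESeq2 called 0, 1 (Hsp90aa1) and 0.

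Groups that did not overlap were found for 24 members, 15 with the knockout below and 9 above. The background was 21.7% of genes in either direction, 10.6% with the knockout below and 11.1% above, and the members stood at 31.6%, 19.7% and 11.8%. The median log2 fold change was -0.08 over the members and -0.01 over all genes tested. Among the 24 members whose mean was at least 100 CPM, a level chosen after values were seen, 18 had a negative log2 fold change and 4 were called, all lower; among all 2170 genes at that level 52.7% were negative, 229 were called lower and 149 higher. Among the 52 members below that level, 27 were negative.

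The number of calls fell when single libraries were left out, over all genes as among the members. The count of lower members was 3 without control 3 or without knockout 4, 4 without knockout 2 and 5 without knockout 3, and the count of higher members was 1 without control 1, control 3, knockout 2, knockout 3 or knockout 4. The share of all genes called was 6.96%, 5.98%, 6.92% and 7.50% without control 3, knockout 4, knockout 2 and knockout 3, against 5.26%, 5.26%, 6.58% and 7.89% of the members. With control 1 and knockout 3 both left out, 6 members were lower and 0 higher (7.89% of the members, 6.95% of all genes). DESeq2 on all 8 libraries called 12 members lower and 4 higher (21.1% of the members, against 17.9% of all genes, 8.52% lower and 9.34% higher).

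**Figure D1:**
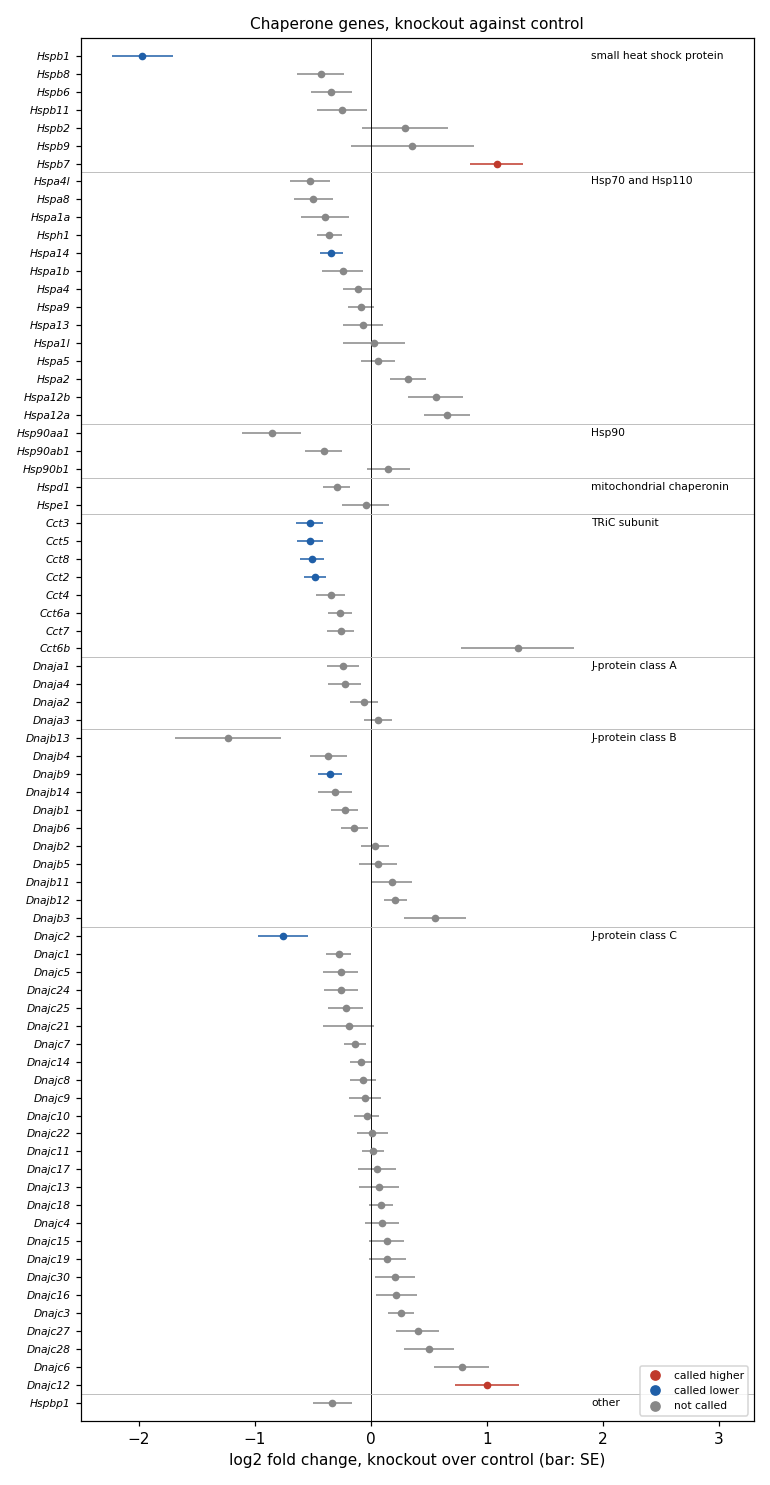
Log2 fold change of knockout over control (x axis, bars are SE) for each of the 76 members, grouped by role; blue and red mark members called lower and higher, grey those not called. The calls lie in the small heat shock, Hsp70, TRiC and J-protein class B and C groups, with Hspb1 farthest left at -1.97.

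The small heat shock proteins are ATP-independent holdases that bind unfolding proteins, and 7 of them were measured. In controls 1 to 4 Hspb1 had 182, 123, 90.8 and 116 CPM, and in knockouts 1 to 4 it had 47.3, 25.5, 23.6 and 34.5 CPM. Every knockout library lay below every control, and control 1 and knockout 1 were the highest of their groups. The means were 128 ± 38.7 and 32.7 ± 10.8 CPM (SD, n = 4 each), 3.92-fold lower in the knockout (edgeR: log2 fold change -1.97 with SE 0.26 and adjusted p = 0.00223). The call held in each of the 15 alternative fits, with log2 fold changes from -2.20 to -1.62. Reads of Hspb1 may be shared with a processed copy: 51.6% of the 50-base words of its longest coding transcript also occur in the pseudogene Hsp25-ps1. The injured tubule markers, 10 of 10 lower, separated the same groups. Control 3 had the highest summed marker level (30201 CPM, of which Spp1 made 21949 CPM) and the lowest control value of Hspb1. Havcr1 and Spp1 were highest in control 3, and the other listed markers were highest in control 1, as Hspb1 was. The part of these markers in this result was not tested.

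Hspb7, a small heat shock protein known chiefly from heart and skeletal muscle, went the other way at a low level. Controls 1 to 4 had 3.43, 5.51, 5.90 and 4.47 CPM, and knockouts 1 to 4 had 8.67, 12.5, 11.4 and 8.36 CPM. The groups did not overlap, and the gene was 2.12-fold higher in the knockout (edgeR: log2 fold change 1.09 with SE 0.23 and adjusted p = 0.0142); with control 1 and knockout 3 both left out the adjusted p was 0.0580. Of 8 skeletal muscle markers, Ckm, Myh1 and Myh4 were at 0 in every library, and the summed level of the list was 1.13 to 1.88 CPM in controls and 2.00 to 4.50 CPM in knockouts. Among those muscle markers Actn3 was called higher, the only one of the 2 tested. Smooth muscle and pericyte markers had 0 of 7 called (0 at an unadjusted p under 0.05, and 0 by DESeq2), with summed levels of 194 to 406 and 314 to 460 CPM. The part of either cell type in the Hspb7 value was not tested.

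The other 5 small heat shock genes were not called. Hspb8, a partner of Bag3 in selective autophagy, had a log2 fold change of -0.43 (adjusted p = 0.192), and Hspb6, which encodes the smooth muscle protein Hsp20, one of -0.34 (adjusted p = 0.238). Hspb11, which encodes the ciliary transport protein Ift25, stood at 5.23 ± 0.634 and 4.41 ± 0.878 CPM. Hspb2 and Hspb9 were near 1 CPM or below in both groups. Cryab, the small heat shock protein alpha B crystallin that the symbol rule does not take in, was far more abundant than Hspb2, its head-to-head neighbour, at 391 ± 72.1 and 293 ± 132 CPM (edgeR log2 fold change -0.42, adjusted p = 0.355); knockout 1, at 472 CPM, lay among the controls. In GENCODE transcripts 28.0% of Hspb2 words occur antisense in Cryab, and the library kit does not mark strand.

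**Figure D2:**
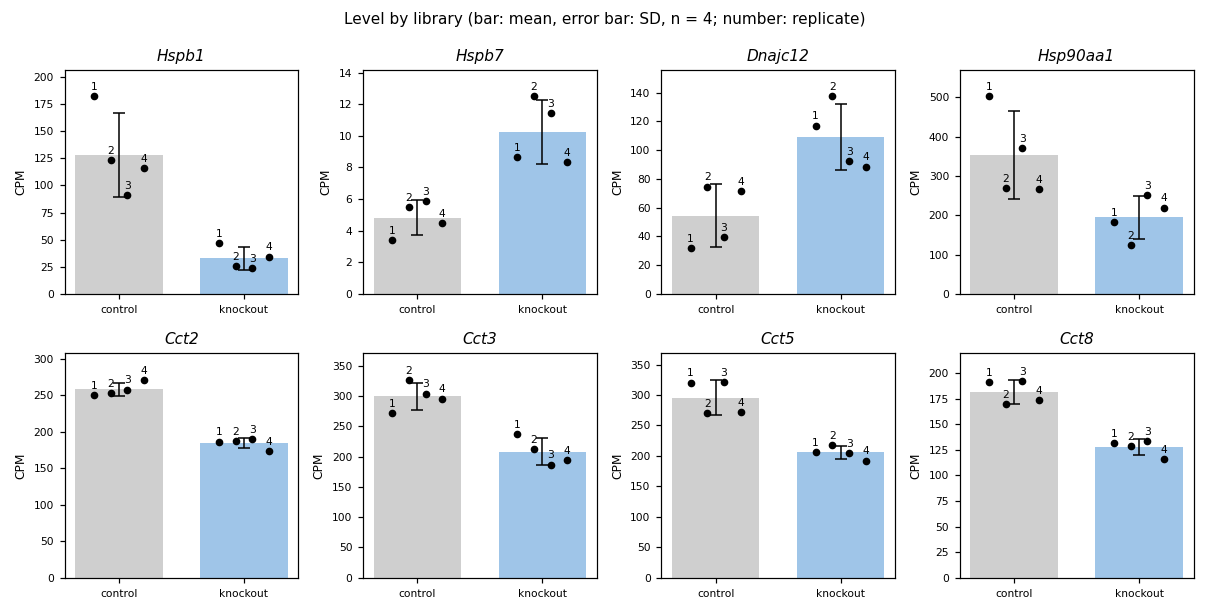
CPM (y axis) of 8 members in each library; bars are group means, error bars SD (n = 4), points single libraries with their replicate number. The genes shown are called members and Hsp90aa1, which was not called. Controls and knockouts do not overlap for any of the 8, as for 24 of all 76 members (31.6%, against 21.7% of all genes). Controls spread most for Hspb1, Hsp90aa1 and Dnajc12.

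The Hsp70 genes encode the central ATP-driven chaperones, and the Hsp110 proteins are their relatives that exchange nucleotide. Of 14 genes measured, edgeR called 1 lower and 0 higher, with a median log2 fold change of -0.10; DESeq2 called 4 lower (Hspa14, Hspa4l, Hspa8 and Hsph1) and 1 higher (Hspa12a). The gene that edgeR called was Hspa14, which encodes the atypical Hsp70 of the ribosome-associated complex. It stood at 52.1, 47.8, 51.2 and 45.7 CPM in controls and at 39.5, 39.2, 41.0 and 35.7 CPM in knockouts, and the groups did not overlap. The change was 1.27-fold (log2 fold change -0.34 with SE 0.10 and edgeR adjusted p = 0.0476). Hspa14 lost its call without any 1 of the 8 libraries, at adjusted p = 0.0915, 0.0649, 0.120 and 0.0631 without controls 1 to 4 and 0.0643, 0.110, 0.0846 and 0.138 without knockouts 1 to 4. The call was also lost without the low-count filter (edgeR adjusted p = 0.0719), with the replicate number as a block (0.110) and without both control 1 and knockout 3 (0.136).

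Its partner in that complex, the class C J-protein Dnajc2 (also called zuotin or Mpp11), was lower too. Dnajc2 had 51.8, 27.7, 37.0 and 29.1 CPM in controls and 20.98, 17.1, 27.3 and 20.7 CPM in knockouts. Control 1 was the highest, and control 2 and knockout 3 nearly met. The fold was 1.69 lower (edgeR: log2 fold change -0.76 with SE 0.22 and adjusted p = 0.0462), with the call lost without control 1 (adjusted p = 0.0806), control 3 (0.0992), knockout 1 (0.0859), knockout 2 (0.124) or knockout 4 (0.118). The call was also lost with the replicate number as a block (edgeR adjusted p = 0.0606).

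Hspa8, which encodes the constitutive Hsc70, was the most abundant member per gene length in both groups, at 1327 CPM per kb in controls and 939.7 CPM per kb in knockouts. Its levels were 2149, 3048, 2863 and 3110 CPM in controls and 2108, 2286, 1700 and 1815 CPM in knockouts. Control 1 lay below knockout 2, so the groups overlapped, and the log2 fold change of -0.50 (SE 0.17) was not called (edgeR adjusted p = 0.0793). Without control 1 it was -0.61 with an adjusted p = 0.0259, and DESeq2 gave an adjusted p = 0.0249. Hspa8 shares 74.8% of its words with 13 other annotated genes, among them the pseudogene Gm15459, so its level depends on how such reads were assigned.

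Hspa1a and Hspa1b, the stress-inducible Hsp70 genes, are near-identical copies. Their promoter stretches are shown because they are near-identical too: 149 of 150 bases before the start agree. The stretches are from RefSeq, build GRCm38.p6 (Hspa1a at chr17:34972157-34972306, Hspa1b at chr17:34959239-34959388, both minus strand). Capitals mark a short heat shock element, GAANNTTC or TTCNNGAA, each of which reads the same on both strands.
Hspa1a: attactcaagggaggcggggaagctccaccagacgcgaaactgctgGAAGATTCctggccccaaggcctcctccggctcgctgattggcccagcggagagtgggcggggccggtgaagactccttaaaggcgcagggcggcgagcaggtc
Hspa1b: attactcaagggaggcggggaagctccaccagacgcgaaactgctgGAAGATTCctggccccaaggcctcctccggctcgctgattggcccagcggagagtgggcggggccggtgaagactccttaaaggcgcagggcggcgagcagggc
Hspb1: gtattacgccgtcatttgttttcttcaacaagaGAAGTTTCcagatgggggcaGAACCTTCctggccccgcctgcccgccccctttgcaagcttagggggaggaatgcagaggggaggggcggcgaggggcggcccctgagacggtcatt
The third line gives the same stretch of Hspb1 (chr5:135887769-135887918, plus strand), the member that fell most, which holds 2 such elements. The element is common: it occurs in 15.1% of 32851 promoter windows of 300 bases and in 19 of the 81 windows of members (23.5%), which belong to 17 of 62 members with a window. A match is a description of the letters, not of a site in use.

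Hspa1a stood at 53.7, 38.7, 36.6 and 29.0 CPM in controls and 35.9, 29.1, 22.1 and 33.1 CPM in knockouts, and Hspa1b at 74.0, 90.0, 91.0 and 63.2 CPM in controls and 70.1, 63.5, 49.0 and 85.9 CPM in knockouts. The groups overlapped for both genes, and knockout 3 had the lowest value of each. The log2 fold changes were -0.40 (SE 0.20, edgeR adjusted p = 0.230) and -0.24 (SE 0.18, adjusted p = 0.405). In transcripts, 58.8% of the words of Hspa1a occur in Hspa1b, so the split between the copies is uncertain. Hspa1l, beside them, had 2.14 to 3.92 CPM in controls and 2.23 to 3.65 CPM in knockouts.

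Hsph1, the inducible Hsp110, was at 126, 146, 135 and 121 CPM in controls and 110.5, 93.0, 98.2 and 109.5 CPM in knockouts. The groups did not overlap, and the log2 fold change of -0.36 (SE 0.11) missed the threshold (edgeR adjusted p = 0.0553; DESeq2 0.0273). Hspa4l, another Hsp110 gene, was at -0.53 (SE 0.17, adjusted p = 0.0688), again without overlap, and Hspa4 at -0.12 (adjusted p = 0.595). On the positive side lay Hspa12a and Hspa12b, which encode distant Hsp70 relatives, at 0.65 (SE 0.20, adjusted p = 0.0572) and 0.56 (SE 0.24, adjusted p = 0.152). Hspa12a stayed between 9.32 and 10.9 CPM in controls and ran from 10.5 to 20.3 CPM in knockouts, with knockout 1 inside the control range. Hspa2, known for its role in sperm cells, was at 0.32 (adjusted p = 0.203).

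The Hsp70s of the mitochondria and the ER were not called. Hspa9, the mitochondrial Hsp70 mortalin, was at 730, 664, 693 and 652 CPM in controls and 656, 630, 687 and 611 CPM in knockouts (edgeR difference -0.08 in log2 units, SE 0.11, adjusted p = 0.658). Hspa5, which encodes the ER chaperone BiP, was at 492, 499, 597 and 603 CPM and 530, 648, 634 and 472 CPM (log2 fold change 0.06, SE 0.14, adjusted p = 0.819), and its sign turned without knockout 2. Per gene length the pair came next to each other after Hspe1, at 225 and 209 CPM per kb in controls and 212 and 218 CPM per kb in knockouts. Hspa13, an ER-associated Hsp70, was at -0.07 (adjusted p = 0.835).

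Hsp90 proteins act late in the folding of kinases and steroid receptors. Hsp90aa1, the inducible cytosolic form, was at 503, 270, 372 and 266 CPM in controls and 182, 125, 252 and 220 CPM in knockouts. The lowest control was above the highest knockout by a small margin, and control 1 stood well above the other controls. The gene was 1.81-fold lower (log2 fold change -0.86, SE 0.26), and just missed the threshold (edgeR adjusted p = 0.0538). It passed without control 2 (adjusted p = 0.0428), in DESeq2 (0.0101), without the low-count filter (0.0486) and with length and GC trends removed (0.0383). Words shared with other annotated genes made up 58.5% of its transcript.

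Hsp90ab1, the constitutive cytosolic form and the second most abundant member per gene length, was at 1670, 2282, 1914 and 2236 CPM in controls and 1819, 1326, 1438 and 1524 CPM in knockouts. Knockout 1 exceeded control 1, and the log2 fold change of -0.41 (SE 0.16) was not called (edgeR adjusted p = 0.118). Hsp90b1, which encodes the ER form Grp94, was at 263, 373, 335 and 415 CPM and 508, 347, 361 and 322 CPM (log2 fold change 0.15, SE 0.18, adjusted p = 0.637), with its sign turned without knockout 1.

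The members together took 1.23% to 1.27% of all counts in controls and 1.03% to 1.06% in knockouts. Hspa8 and Hsp90ab1 alone supplied 33.3% to 41.3% of those counts in controls and 31.2% to 35.3% in knockouts. As TMM-scaled sums the members reached 11463 to 13064 CPM in controls and 9813 to 11122 CPM in knockouts; control 1 was the lowest control and knockout 1 the highest knockout. These sums follow the most abundant genes and carry no test.

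**Figure D3:**
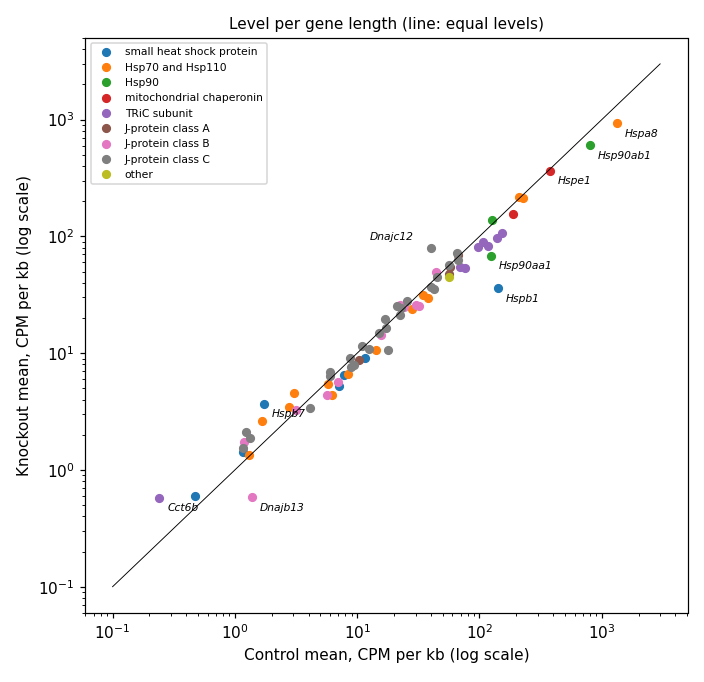
Mean level per gene length (CPM per kb, log scales) in controls (x axis) and knockouts (y axis), 1 point per member, coloured by role; the line marks equal levels. Hspa8 and Hsp90ab1 are at the top right just below the line, and Hspb1 is the abundant gene farthest below it, at 142 and 36.2 CPM per kb.

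Hspd1 and Hspe1 encode Hsp60 and Hsp10, the barrel and lid of the mitochondrial chaperonin, and are transcribed in opposite directions from a shared promoter. A long heat shock element, the short one followed after NN by a further GAA or TTC unit so that the units alternate, is found in 198 of 32851 promoter windows (0.603%), and in windows of 4 members: Dnajb6, Hsph1, Hspe1 and Hspd1, the last in 1 of its 2 windows. Capitals mark 2 overlapping matches of it in each gene of the pair, printed on the gene's own strand (RefSeq, GRCm38.p6, chr1:55088054-55088081, plus strand for Hspe1 and minus strand for Hspd1). The lines are reverse complements of each other, so that those windows of the pair contain 1 and the same block.
Hspe1: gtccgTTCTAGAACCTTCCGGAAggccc
Hspd1: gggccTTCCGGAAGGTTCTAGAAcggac
Hspd1 was at 465, 476, 508 and 515 CPM in controls and 430, 353, 435 and 383 CPM in knockouts, without overlap (log2 fold change -0.29 with SE 0.12 and edgeR adjusted p = 0.124). Hspe1 was at 227, 352, 262 and 319 CPM in controls and 380, 294, 218 and 232 CPM in knockouts, with both the highest and the lowest value in the knockout group (log2 fold change -0.05, SE 0.20, adjusted p = 0.906). The difference between the pair was not tested. Each shares 44.8% of its words with other annotated genes, mostly pseudogenes.

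TRiC is built of 8 different subunits, of which Tcp1 is the first and the Cct genes are the others. The Cct genes gave the members' densest run of calls, 4 of 8, against 12.7% of all genes (6.28% lower). Cct2, Cct3, Cct5 and Cct8 fell, and Cct4, Cct6a and Cct7 had negative log2 fold changes that were not called. Cct6b, the testis form of Cct6, had a positive one that was not called. Cct2 stood at 251, 253, 258 and 271 CPM in controls and 187, 188, 190 and 174 CPM in knockouts. Both groups were tight and far apart relative to their spread, at 258 ± 9.12 and 185 ± 7.23 CPM (SD, n = 4 each; 1.40-fold lower, log2 fold change -0.48 with SE 0.10 and edgeR adjusted p = 0.0116). Cct8 was at 191, 169, 192 and 173 CPM in controls and 131, 129, 133 and 116 CPM in knockouts (1.42-fold lower; edgeR log2 fold change -0.51 with SE 0.10 and adjusted p = 0.0117). Both genes stayed called when any 1 library was left out. With the replicate number as a block, all 4 called Cct genes lost their call. The edgeR adjusted p was then 0.0675 for Cct2, 0.0535 for Cct8, 0.0661 for Cct5 and 0.0756 for Cct3.

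Cct5 was at 321, 270, 321 and 272 CPM in controls and 207, 219, 205 and 192 CPM in knockouts (1.44-fold lower; edgeR gave a log2 fold change of -0.52 with SE 0.11 and adjusted p = 0.0152). Cct3 was at 271, 326, 304 and 296 CPM in controls and 237, 212, 187 and 194 CPM in knockouts (1.44-fold lower; edgeR log2 fold change -0.53 with SE 0.12 and adjusted p = 0.0189). For neither gene did the groups overlap. Cct5 lost its call without control 3 (adjusted p = 0.0526) or knockout 4 (0.0559), and Cct3 without control 3 (0.0546), knockout 2 (0.0543), knockout 3 (0.0589) or knockout 4 (0.0648), while their log2 fold changes stayed between -0.60 and -0.48 in all 15 alternatives. Cct5 also lost its call without both control 1 and knockout 3 (edgeR adjusted p = 0.0635). Control 1 and control 3 were the highest for Cct5 and Cct8, but not for Cct2 and Cct3.

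Cct4 had 161, 118, 154 and 117 CPM in controls and 107 to 110 CPM in all 4 knockouts, without overlap (log2 fold change -0.35 with SE 0.13 and edgeR adjusted p = 0.102). Cct6a was at -0.27 (SE 0.11, adjusted p = 0.126), also without overlap, and Cct7 at -0.26 (SE 0.12, adjusted p = 0.169) with overlap. Cct6b was the lowest member per gene length in both groups, with 5 to 22 counts per control library and 28 to 55 per knockout library (log2 fold change 1.26, SE 0.49, adjusted p = 0.117). Tcp1, which the symbol rule leaves out, was at 161, 109, 156 and 132 CPM in controls and 91.2, 120, 127 and 117 CPM in knockouts, with overlap (log2 fold change -0.29, SE 0.15, adjusted p = 0.239). At most 8.28% of the words of Cct2, Cct3, Cct4, Cct5, Cct6b, Cct7 or Cct8 occur in another gene; Cct6a had no transcript in the comparison. Injured tubule markers (10 of 10 lower) and immediate early genes (11 of 16 lower, summed level 1061 to 1353 CPM in controls and 599.6 to 718 CPM in knockouts) separated the same groups, and their part in the TRiC values was not tested.

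A short heat shock element lies close to the start of Cct2 and Cct5, both called, and is shown in capitals (RefSeq, GRCm38.p6, minus strand, chr10:117063400-117063427 and chr15:31601863-31601890).
Cct2: cccaagtgaaGAAGTTTCtagcaggacc
Cct5: cagcggccgaTTCCAGAAgctactctgc
For Cct2 and Cct5 it was found in 1 of the 2 windows of each gene. The window of Cct6a, not called, holds it as well, and those of Cct3 and Cct8, both called, do not. Those of Cct7 and Cct6b, not called, do not hold it either, and Cct4 had no window. Among all promoter windows 15.1% hold the element.

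Prefoldin hands unfolded actin and tubulin to TRiC. In the list of Tcp1, prefoldin subunits and phosducin-like partners, 0 of 10 tested genes were called, although 9 of 10 log2 fold changes were negative, from -0.39 (Vbp1) to 0.12 (Pfdn5), with a median of -0.24; 1 had an unadjusted p under 0.05, and DESeq2 called 0.

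**Figure D4:**
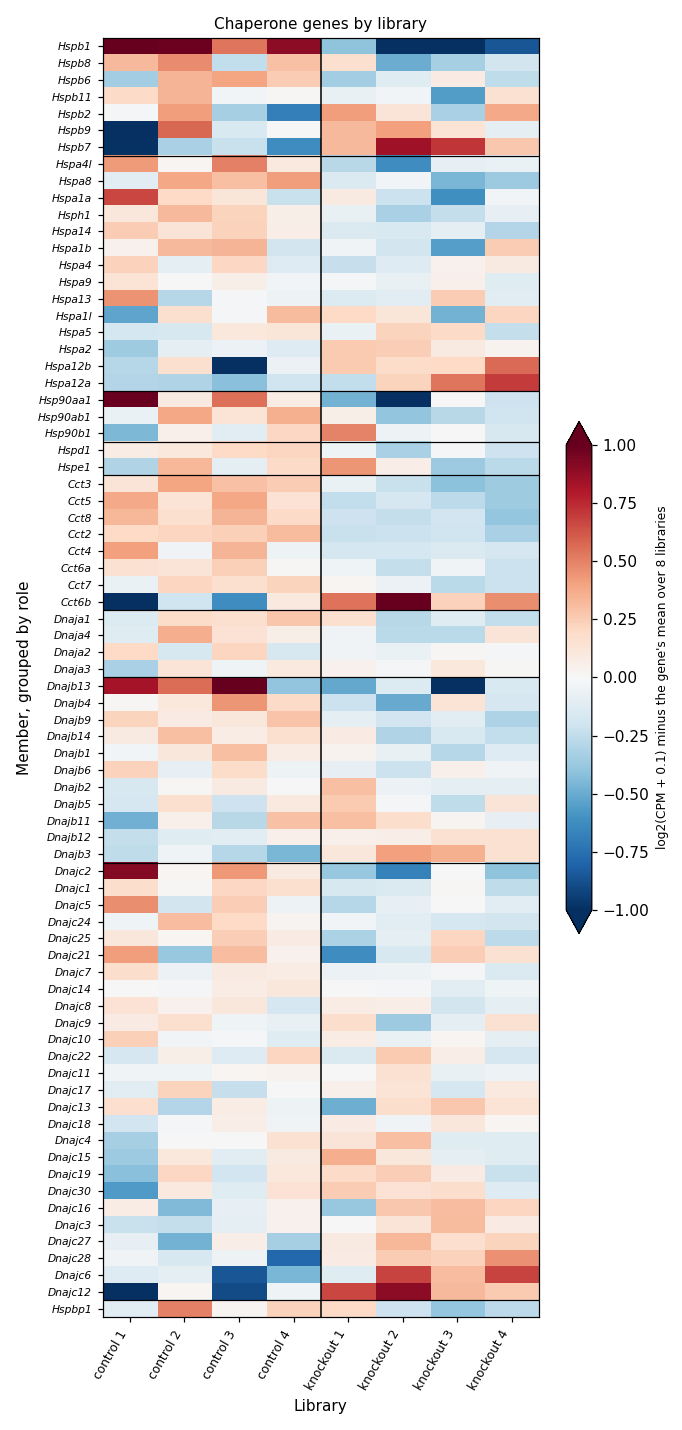
Level of each of the 76 members (rows, grouped by role) in each library (columns), as log2(CPM + 0.1) minus the mean of that gene over the 8 libraries; colours saturate at -1 and 1. The TRiC rows apart from Cct6b are mostly red in controls and mostly blue in knockouts, while the class C J-protein rows are mixed.

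J-proteins choose the clients of Hsp70. Class A and most of class B resemble bacterial DnaJ, and class C shares only the J-domain. Of the 4 class A genes Dnaja1, the stress-responsive one, was at 167, 209, 206 and 223 CPM in controls and 206, 152, 169 and 155 CPM in knockouts (edgeR difference -0.24 in log2 units, SE 0.14, adjusted p = 0.275). Dnaja2, Dnaja3 (the mitochondrial Tid1) and Dnaja4 were at -0.06, 0.06 and -0.23.

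Of 11 class B genes, Dnajb9 fell. It encodes ERdj4, an ER J-protein that works with BiP and holds the stress sensor Ire1 inactive. Dnajb9 was at 62.0, 56.1, 57.5 and 64.6 CPM in controls and 49.9, 46.5, 49.0 and 42.8 CPM in knockouts, with no overlap (1.28-fold lower; edgeR gave a log2 fold change of -0.35 with SE 0.10 and adjusted p = 0.0457). The call was close to the threshold: it was lost with RLE normalization (adjusted p = 0.0505), without the low-count filter (0.0671), with length and GC trends removed (0.0969), and without control 1 (0.0782), control 3 (0.0839), control 4 (0.105), knockout 2 (0.118), knockout 3 (0.0879) or knockout 4 (0.132). It was also lost with the replicate number as a block (edgeR adjusted p = 0.129) and without both control 1 and knockout 3 (0.131).

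Dnajb1, the inducible Hsp40 partner of Hspa1a, was at 88.6, 97.8, 111 and 95.1 CPM in controls and 92.8, 86.0, 74.1 and 82.6 CPM in knockouts (edgeR difference -0.23 in log2 units, SE 0.11, adjusted p = 0.215). Dnajb4 was at -0.37 (adjusted p = 0.150) and Dnajb6, known for keeping polyglutamine proteins from aggregating, at -0.14 (adjusted p = 0.443). Dnajb12 and Dnajb14, both J-proteins of the ER membrane, lay on opposite sides, at 0.21 without overlap and -0.31 with overlap (adjusted p = 0.193 each). Dnajb13, a protein of sperm and cilia, had 11 to 83 counts per library and a log2 fold change of -1.23 (SE 0.46, adjusted p = 0.105).

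Class C held 26 genes, of which 1 rose, 1 (Dnajc2, above) fell and 24 were not called, with a median log2 fold change of 0.03. Dnajc12, a co-chaperone of the aromatic amino acid hydroxylases, was at 31.7, 74.7, 39.6 and 71.6 CPM in controls and 117, 137, 92.2 and 88.6 CPM in knockouts. All knockouts were above all controls, and controls 1 and 3 were well below controls 2 and 4. The gene was 2.00-fold higher (edgeR: log2 fold change 1.00 with SE 0.28 and adjusted p = 0.0404). Its call was lost without control 1 (adjusted p = 0.0537), control 3 (0.106), knockout 1 (0.0769), knockout 2 (0.109), knockout 3 (0.0648) or knockout 4 (0.0675). The call was also lost with the replicate number as a block (edgeR adjusted p = 0.0553) and without both control 1 and knockout 3 (0.0680). Summed proximal tubule markers (3 of 10 called, all higher) had the same split among controls, at 2327 and 3665 CPM in controls 1 and 3 against 5750 and 7160 CPM in controls 2 and 4, and 6516 to 8805 CPM in knockouts; their part in the Dnajc12 value was not tested.

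Among the rest of class C, Dnajc6, which encodes the clathrin-uncoating protein auxilin, was at 0.78 (SE 0.24, edgeR adjusted p = 0.0572; it was called without knockout 1 and by DESeq2), and Dnajc28 and Dnajc27 at 0.50 and 0.40, both without overlap. Dnajc3, the ER J-protein p58IPK, was at 0.26 (adjusted p = 0.159) and Dnajc1 at -0.28 without overlap (adjusted p = 0.112). The mitochondrial members Dnajc11, Dnajc15, Dnajc19 and Dnajc30 were between 0.02 and 0.21, and Dnajc28, above, is mitochondrial too. The endosomal J-protein gene Dnajc13 and the synaptic vesicle gene Dnajc5, which encodes cysteine string protein, were at 0.07 and -0.26. Hspbp1, a nucleotide exchange factor of Hsp70 that the symbol rule includes, was at -0.33 (adjusted p = 0.218).

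The counts of sign differed between a list of stress-related members and lists of ER and mitochondrial members. The stress-related list was chosen by gene, like the other lists with earlier results of these data known, and is not a list of the cytosol. Hspa2, with a log2 fold change of 0.32, and Hspa14, with -0.34, are outside it. In a list of 14 stress-related genes, mostly cytosolic, 14 of 14 log2 fold changes were negative. The list includes the constitutive Hspa8 and Hsp90ab1 with the inducible forms. The values ran from -1.97 to -0.05 with a median of -0.38, and over all genes tested 7673 of 15000 were negative. The smallest, that of Hspe1 (-0.05, SE 0.20), turned positive without control 2, control 4, knockout 3 or knockout 4. Hspa1a and Hspa1b share words, so their signs may not be separate observations. Of the 14, edgeR called 1, Hspb1 (12.7% of all genes), DESeq2 called 5 (17.9% of all genes), and 5 had the knockout below without overlap (10.6% of all genes). Of 10 ER members 5 were negative (median 0.01), with Dnajb9 called, and of 9 mitochondrial members 3 were negative (median 0.06), with 0 called by edgeR or DESeq2 and 2 at an unadjusted p under 0.05. Hspd1 and Hspe1 are in both the first and the third list. Immediate early genes, 11 of 16 lower, separated the same groups as the first list. Control 1 had the highest summed level of immediate early genes (1353 CPM) and the lowest control level of the first list (5769 CPM). The sum of that list follows Hspa8 and Hsp90ab1, whose lowest control values were in control 1 (2149 and 1670 CPM). In the list Hspb1, Hsp90aa1 and Hspa1a were highest in control 1, and the other genes were not. The part of immediate early genes in the first list was not tested. Heat shock factor genes themselves gave 0 calls among 5 tested by edgeR (1 at an unadjusted p under 0.05, and 0 by DESeq2); Hsf1 was at 51.3 ± 3.48 CPM (controls) and 43.7 ± 0.893 CPM (knockouts), without overlap (edgeR adjusted p = 0.136).

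For the ER, the known ER stress response element (CCAAT, 9 free bases, CCACG, searched on both strands) was found in 39 of 32851 promoter windows (0.119%) and in those of 3 members, Hspa5, Hsp90b1 and Dnajc3. They are printed with the match in capitals as a description of the letters (RefSeq, GRCm38.p6, chr2:34772020-34772047 plus strand, chr10:86705529-86705556 minus strand, where the match reads on the opposite strand, and chr14:118937822-118937849 plus strand). The window of Hsp90b1 holds a further match on its own strand, at bases -212 to -194 from the start, which is not printed. None of the 3 genes was called, and the signs of Hspa5 and Hsp90b1 turned with 1 library left out. A link between the element and the values was not tested.
Hspa5: cttcaCCAATCGGAGGCCTCCACGacgg
Hsp90b1: gagtgCGTGGTGAGGCACGATTGGtgag
Dnajc3: cacaaCCAATCAGCGCCAACCACGaccc
Of 21 other genes of ER folding and the unfolded protein response, edgeR called 1 lower and 0 higher, and DESeq2 called Ddit3 and Xbp1 lower. Ddit3, which encodes the stress transcription factor Chop, went from 26.4 ± 4.59 to 17.1 ± 3.48 CPM (edgeR log2 fold change -0.63, SE 0.18, adjusted p = 0.0435), with knockout 1 at 22.0 CPM above control 3 at 21.3 CPM. Xbp1, whose spliced form drives ER chaperone genes, was at -0.49 without overlap (edgeR adjusted p = 0.0555).

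Co-chaperones that steer Hsp70 and Hsp90 gave 1 call among 27 (4 by DESeq2). Bag2, an Hsp70 nucleotide exchange factor that restrains the ubiquitin ligase Chip, was at 97.1, 67.2, 104 and 70.5 CPM in controls and 46.3, 41.5, 45.8 and 43.2 CPM in knockouts. Every knockout was below every control (1.92-fold lower, edgeR log2 fold change -0.94, SE 0.15, adjusted p = 0.00508). Bag3, the stress-inducible partner of Hspb8, was at -0.40 without overlap (adjusted p = 0.0565). Stip1, which links Hsp70 to Hsp90, and Stub1, which encodes Chip, were at -0.25 and 0.04. Of 10 genes for mitochondrial folding and proteolysis 1 had an unadjusted p under 0.05; edgeR called 0 and DESeq2 called 1, Grpel1, the exchange factor of mortalin, at 0.40 (edgeR adjusted p = 0.0609). Among further heat-inducible genes Hmox1, which encodes heme oxygenase 1, was called lower, at 452 ± 47.4 and 93.9 ± 15.7 CPM, and the ubiquitin gene Ubb and the collagen chaperone gene Serpinh1 had log2 fold changes of -0.36 and -0.15 that were not called.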

How the data were processed

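RNA-seq counts of 8 kidney libraries, 4 control and 4 knockout, were used. The authors deposited 1 table of whole-number counts per gene symbol, with no normalization, and a gene length; per the submitters' processing notes the build was mm39 and the tools included Salmon 1.10.2, HISAT2 2.2.1 and Trim Galore 0.6.2; which tool made the counts is not given in the sources used here. Of 18423 Ensembl identifiers in the table that the reference knows, 13 belonged to the symbol in their line, so symbols were used. Among counts of 1 to 20, 68.7% to 70.9% were even, for a reason not given in the sources used here.

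Genes were fitted with edgeR 4.0.16 in R 4.3.3: filterByExpr (minimum count 10), TMM, glmQLFit and glmQLFTest over 15000 genes with Benjamini-Hochberg adjustment, called at an adjusted p under 0.05. SE is from the F statistic. CPM uses TMM-scaled library sizes, and CPM per kb divides by the deposited length. The code was tested on simulated data. Members, role groups, gene lists and tests were chosen with earlier results of these data known. All members could be named; values by library are given for called members and a set list of main chaperones, and from pathway lists for called genes. Uncalled genes of pathway lists, and Cct4 and Tcp1, were picked for mention after their values were seen. Promoter windows (250 bases before to 50 after the start) are from RefSeq on GRCm38.p6, which is not the build of the counts; 62 members had one. Read sharing was measured as 50-base words of GENCODE vM21 transcripts. Alternatives were RLE and upper-quartile scaling, DESeq2 1.42.0, no low-count filter, a replicate block, each library left out, control 1 and knockout 3 both left out, and, added after seeing the data, length and GC trends removed.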

Additional observations from a re-analysis of the deposited data

Results flagged for a closer look

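In 3 of 152 groups of 4 libraries, 1 library stood apart from the other 3 by more than the Dixon limit; chance gives about 1 in 20. Dnajb2 was at 96.0 CPM in knockout 1 against 72.6 to 74.7 CPM in the other knockouts. Hspa13 was at 27.5 CPM in knockout 3 against 20.98 to 21.4 CPM. Hspa1l was at 2.23 CPM in knockout 3 against 3.42 to 3.65 CPM.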

How the results depend on the processing

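Of 405 values of 27 members under 15 alternatives, 343 kept their direction and side of the threshold, 48 lost a call, 7 gained one and 7 changed sign. The sign changes were in uncalled genes: Hsp90b1 (log2 fold change -0.0132 without knockout 1; up to 0.25 with others left out), Hspa5 (-0.0012 without knockout 2, up to 0.14 with others left out, -0.0413 without both control 1 and knockout 3) and Hspe1 (0.0595 without control 2, 0.0027 without control 4, 0.0581 without knockout 3, 0.0360 without knockout 4, down to -0.23 with others left out). With 1 library left out, the genes called ran from 907 to 1984, the members higher from 1 to 3 and the members lower from 3 to 8. DESeq2 called 2997 genes and 4 members higher. Without control 1 and knockout 3, 1045 genes and 0 members higher were called, and with length and GC trends removed 4 members were higher. A fit with the replicate block called 865 genes, 1 member higher and 1 lower (Hspb7 and Hspb1); same-numbered libraries had correlated deviations in 1 of 4 numbers over 0.1, and 0 libraries correlated best with their own number. The block and these correlations used the replicate numbers of the titles, which do not decide whether libraries are paired in another way. By the numbers of the deposited columns, control 2 goes with knockout 1 and control 3 with knockout 2. Their correlations were 0.347 and 0.167, the highest for each of these libraries, and a block by column number was not fitted. Fewer libraries enter the left-out fits, and the block leaves fewer residual degrees of freedom.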

Other observations

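Control 1 held the highest value over the 8 libraries for 15 of the 76 members and the lowest for 17. Knockout 3 held the highest for 5 and the lowest for 16, and control 4 the highest for 8 and the lowest for 5.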
